A study of Mus musculus with 12 samples.

Results

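The genes described here are the receptors and first adaptors through which cells read bacterial lipopolysaccharide and lipopeptides: Cd14, Ly96, Tlr2, Tlr4, Tlr6, Myd88, Ticam1, Irak1, Irak4 and Traf6. They were chosen by name, as this receptor family and its proximal signalling proteins, and their Ensembl identifiers were looked up in the deposited table. All 10 were found among the 55487 genes of the table, and all 10 passed the filter on low counts that left 14509 genes for testing. Their RNA was measured by sequencing in SCC7 cells, a mouse squamous carcinoma line, labelled WT in every sample. The cells had been kept for 24 h in conditioned medium (CM) from bone-marrow-derived macrophages (BMDM). The macrophages had first been treated for 24 h, with 20 ng/ml interferon-gamma for M1 CM, with 20 ng/ml IL-4 for M2 CM, with 75% medium conditioned by SCC7 cells for TAM CM, and with the control medium DMEM for M0 CM. Each medium had 3 libraries, and all 4 media share the macrophage source and the 24 h exposure. The labels do not say whether replicate libraries came from separate cultures or separate macrophage preparations, so each p-value weighs a difference against the spread of these libraries alone, which may be technical. The sources used here do not say whether the cytokines were washed off before a medium was taken. Whether SCC7-conditioned medium was carried over into TAM CM was not tested.

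CD14 is a surface co-receptor that passes lipopolysaccharide to the complex of TLR4 and its partner MD-2, the product of Ly96. TLR2 pairs with TLR6 or TLR1 to bind bacterial lipopeptides, and CD14 assists it as well. The receptors signal through the adaptor MyD88, which assembles the kinases IRAK4 and IRAK1 and the ubiquitin ligase TRAF6 and leads to NF-kB. TLR4 also signals through TRIF, the product of Ticam1, towards interferon genes. The system is best known from macrophages, but epithelial and tumour cells express parts of it too.

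Library totals ran from 18996937 to 22596630 counts, so that 1 CPM (a read count scaled to the size of its library) stands for 18.3 to 23.5 reads in a library. Levels are given as CPM, and levels of different genes are compared as CPM per kb of exon (RPKM). Where counts of scarce genes stand beside those of another gene, exon length is not taken into account. Of 11 squamous epithelial markers, Krt15, Epcam and Dsg3 had 0 counts in all 12 libraries. Krt5, Krt14, Krt17 and Cdh1 had at most 5 counts in any library. Trp63 and Dsp were highest in M0 CM, at 1.79 and 1.55 CPM. Krt8 averaged 129 CPM in M1 CM, 453 CPM in M2 CM, 63.6 CPM in TAM CM and 267 CPM in M0 CM. Krt18 averaged 38.8, 263, 31.3 and 105 CPM in the same order of media. Nearly all of the summed list came from these keratins. The sum ran from 166 to 170 CPM in M1 CM and from 679 to 757 CPM in M2 CM. It ran from 89.2 to 99.1 CPM in TAM CM and from 360 to 391 CPM in M0 CM. The fibroblast list summed to between 1416 and 1510 CPM in M1 CM and 1462 and 1488 CPM in M2 CM. It summed to between 1135 and 1189 CPM in TAM CM and 2463 and 2611 CPM in M0 CM. Most of this sum came from the collagens Col1a1, Col1a2 and Col3a1, each highest in M0 CM. Others of the list went another way. Pdgfra averaged 263, 168, 320 and 236 CPM in M1 CM, M2 CM, TAM CM and M0 CM. Dcn averaged 12.5, 4.10, 16.9 and 2.82 CPM in that order, and Lum and Thy1 had 0 counts. What part these shifts have in the results was not tested. One M2 CM library, replicate 3, is labelled as melanoma, unlike the others, and leaving it out ended 1 call for the 10 genes, that of Irak1 in TAM CM against M2 CM (edgeR adjusted p = 0.0528).

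Genes are called where the adjusted p of edgeR's quasi-likelihood test, with Benjamini-Hochberg adjustment over the 14509 genes, was under 0.05. With M1 CM over M0 CM, 5 of the 10 were higher and 0 lower, where 53.4% of all genes tested were called, 27.7% higher and 25.6% lower. With M2 CM, 1 was higher and 2 were lower, where 39.4% of all genes were called, 21.0% higher and 18.5% lower. With TAM CM, 4 were higher and 3 lower, where 70.0% of all genes were called, 35.1% higher and 34.9% lower. The shares called were thus near or below those of all genes, and the sections that follow are about size, direction and pattern, gene by gene. The median log2 fold change of the 10 genes was 0.25 with M1 CM, -0.07 with M2 CM and 0.13 with TAM CM, while the median over all genes lay within 0.02 of 0 in each. These 3 comparisons share the M0 CM libraries. In a test of any difference among the 4 media, Irak4 was the only member not called (edgeR adjusted p = 0.148), while 83.5% of all genes were called.

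**Figure D1:**
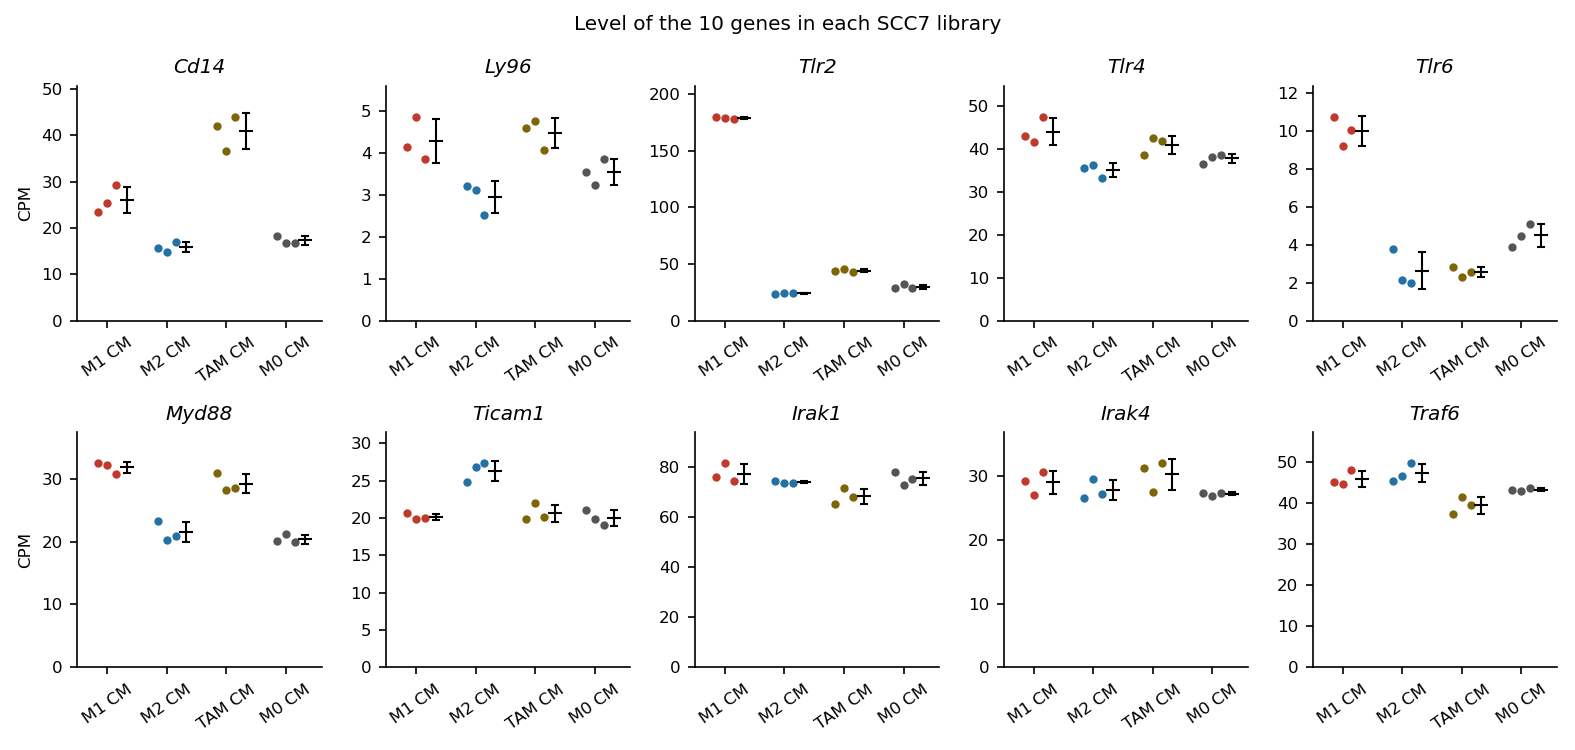
Level of each gene in CPM (vertical axis, from 0) in the 3 libraries of each conditioned medium, with the mean and SD beside them as a bar. Tlr2 lies near 179 CPM in M1 CM, far above the other media, Cd14 is highest in TAM CM, and Irak1, Irak4 and Traf6 differ little.

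Cd14 (ENSMUSG00000051439, mm10 chromosome 18, 36725067 to 36726798, minus strand) was higher in 2 of the 3 media than in M0 CM and highest in TAM CM. Its libraries had 42.0, 36.7 and 44.1 CPM in TAM CM, against 18.4, 16.9 and 16.8 CPM in M0 CM. The TAM CM libraries all lay above every library of the other media, and the log2 fold change over M0 CM was 1.23 (SE 0.08, 95% interval 1.08 to 1.39, edgeR adjusted p = 7.97e-19), a 2.35-fold difference. In M1 CM the libraries had 23.5, 25.4 and 29.2 CPM, also all above those of M0 CM, with a log2 fold change of 0.58 (SE 0.08, edgeR adjusted p = 3.71e-08). In M2 CM they had 15.7, 14.9 and 17.1 CPM and overlapped the M0 CM libraries. That log2 difference was -0.13 (95% interval -0.30 to 0.05, edgeR adjusted p = 0.265). TAM CM exceeded M1 CM by 0.65 on the log2 scale (SE 0.07, edgeR adjusted p = 1.35e-10), so the order TAM CM, M1 CM, M0 CM, M2 CM was separated at every step but its last. In bulk RNA, fewer cells of a type and less RNA per cell cannot be told apart.

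Cd14 is a standard macrophage marker, and the cells had been bathed in macrophage medium, so 20 other macrophage markers were read beside it. Tyrobp, C1qa, C1qb and C1qc had 0 counts in all 12 libraries, and 15 of the 20 had at most 10 counts in any library. Csf1r, the receptor for macrophage colony-stimulating factor, reached at most 14 counts and Adgre1 at most 4, where Cd14 had between 297 and 865. The summed level of the 20 ran from 11.6 to 12.98 CPM in M1 CM, from 8.08 to 9.06 CPM in M2 CM, from 5.33 to 7.33 CPM in TAM CM and from 6.46 to 7.08 CPM in M0 CM. The TAM CM libraries, with the highest Cd14, thus overlapped those of M0 CM in this sum. Those of M1 CM lay above M0 CM, and the part of these markers in the results was not tested. Cd68, with the most counts of the 20, was lower in TAM CM by a log2 fold change of -0.44 and higher in M1 CM by 0.85 (edgeR adjusted p = 0.0324 and 1.27e-05). The other tested markers had log2 differences between TAM CM and M0 CM of 0.67 for Lyz2, 0.34 for Aif1 and 0.10 for Mrc1, none of them called. Lyz2, which encodes lysozyme, was higher in TAM CM than in M1 CM and M2 CM, by 1.64 and 1.65 on the log2 scale (edgeR adjusted p = 0.000572 and 0.000533), as Cd14 was, at 1.31 CPM in TAM CM, 0.42 CPM in M1 CM and 0.42 CPM in M2 CM. Against M0 CM, Mrc1 was higher in M1 CM and M2 CM, by 1.92 and 1.47 (edgeR adjusted p = 1.83e-07 and 8.60e-05), and Aif1 was higher in M1 CM by 0.96 and lower in M2 CM by -1.51 (edgeR adjusted p = 0.0286 and 0.0174).

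Tlr4 (ENSMUSG00000039005, chromosome 4, 66827584 to 66930284, plus strand), the signalling receptor for lipopolysaccharide, varied over a narrow range. Its libraries had 43.1, 41.5 and 47.5 CPM in M1 CM, 35.5, 36.4 and 33.2 CPM in M2 CM, 38.5, 42.5 and 41.8 CPM in TAM CM, and 36.6, 38.2 and 38.6 CPM in M0 CM. The M1 CM libraries lay wholly above those of M0 CM and were called, with a log2 fold change of 0.22 (SE 0.06, edgeR adjusted p = 0.00127). The log2 difference from M0 CM was -0.11 in M2 CM (95% interval -0.23 to 0.01) and 0.12 in TAM CM (95% interval -0.0023 to 0.24, edgeR adjusted p = 0.0752). Neither was called, but without the first TAM CM library the TAM CM difference was 0.16 and was (edgeR adjusted p = 0.0311), and with unscaled library sizes the M2 CM difference was -0.17 and was (edgeR adjusted p = 0.025).

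Ly96 (ENSMUSG00000025779, chromosome 1, 16688051 to 16709611, plus strand), which encodes the lipopolysaccharide-binding partner of TLR4, was scarce, with 53 to 105 counts in a library. The libraries had 4.14, 4.86 and 3.84 CPM in M1 CM, 3.20, 3.11 and 2.52 CPM in M2 CM, 4.59, 4.74 and 4.07 CPM in TAM CM, and 3.53, 3.23 and 3.85 CPM in M0 CM. TAM CM and M2 CM stood at opposite ends, and no medium was called against M0 CM. The log2 differences from M0 CM were 0.27 in M1 CM (95% interval -0.07 to 0.61), -0.27 in M2 CM (-0.62 to 0.09) and 0.34 in TAM CM (-0.0020 to 0.68). The direct comparison of the ends was called, with TAM CM above M2 CM by 0.60 on the log2 scale (SE 0.17, edgeR adjusted p = 0.00204). M2 CM was below M1 CM by a log2 fold change of -0.54 (edgeR adjusted p = 0.00706), but without the second M1 CM library this became -0.44 and was not called (edgeR adjusted p = 0.052).

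Per kb of exon, the ratio of Cd14 to Tlr4 was 1.90 ± 0.12 in M1 CM, 1.46 ± 0.17 in M2 CM, 3.22 ± 0.39 in TAM CM and 1.47 ± 0.12 in M0 CM (SD, n = 3 each). Every TAM CM library was above every library of the other media, with 2.77 as the lowest TAM CM ratio and 1.97 as the highest elsewhere. The ratio of Cd14 to Ly96 was likewise highest in TAM CM, at 5.45 ± 0.91, against 2.90 ± 0.29 in M0 CM (SD, n = 3 each). Between TAM CM and M0 CM, neither ratio overlapped.

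Tlr2 (ENSMUSG00000027995, chromosome 3, 83836272 to 83841767, minus strand), the shared subunit of the lipopeptide receptors, had the widest range of the 10 genes. Its libraries had 180, 179 and 178 CPM in M1 CM, 23.5, 24.5 and 24.2 CPM in M2 CM, 44.0, 46.0 and 42.8 CPM in TAM CM, and 29.1, 32.1 and 29.1 CPM in M0 CM. No library of one medium overlapped those of another. Against M0 CM the log2 fold change was 2.57 in M1 CM (SE 0.05, edgeR adjusted p = 6.69e-42), a 5.96-fold difference. It was -0.32 in M2 CM (SE 0.06, edgeR adjusted p = 7.82e-06) and 0.56 in TAM CM (SE 0.05, edgeR adjusted p = 1.44e-13). The order M1 CM, TAM CM, M0 CM, M2 CM was separated at every step, and M2 CM was 7.44-fold below M1 CM. Relative to Tlr4 per kb of exon, Tlr2 stood at 7.51 ± 0.53 in M1 CM, 1.27 ± 0.07 in M2 CM, 2.00 ± 0.11 in TAM CM and 1.47 ± 0.08 in M0 CM (SD, n = 3 each).

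The promoter of Tlr2 is shown because this gene carries the widest range. It covers 250 bases before to 50 bases after the RefSeq start on GRCm38.p6, chr3:83841559-83841858, minus strand, written 5′ to 3′. Capitals mark matches to an NF-kB motif, GGGNNTTCC, searched on both strands.
Tlr2: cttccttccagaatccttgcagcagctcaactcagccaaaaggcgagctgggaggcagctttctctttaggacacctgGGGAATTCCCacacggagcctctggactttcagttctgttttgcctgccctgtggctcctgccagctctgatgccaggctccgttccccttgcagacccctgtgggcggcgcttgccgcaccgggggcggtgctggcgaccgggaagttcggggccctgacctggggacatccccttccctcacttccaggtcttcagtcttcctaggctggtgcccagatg
The stretch is a palindrome, so it was matched on both strands, at positions -172 to -164 and, overlapping these, -171 to -163 from the start. The same motif was found in 5.82% of 32851 RefSeq promoter windows of 300 bases. A match describes the letters only.

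Tlr6 (ENSMUSG00000051498, chromosome 5, 64952031 to 64960097, minus strand), the partner of TLR2 for diacylated lipopeptides, moved with Tlr2 in M1 CM and M2 CM but in the opposite direction in TAM CM. Its libraries had 10.8, 9.18 and 10.03 CPM in M1 CM, 3.76, 2.16 and 2.00 CPM in M2 CM, 2.84, 2.30 and 2.55 CPM in TAM CM, and 3.91, 4.48 and 5.11 CPM in M0 CM. M1 CM was above and both other media were below all M0 CM libraries. The log2 fold change over M0 CM was 1.16 in M1 CM (SE 0.15, edgeR adjusted p = 8.55e-09), -0.76 in M2 CM (SE 0.18, edgeR adjusted p = 0.000739) and -0.81 in TAM CM (SE 0.19, edgeR adjusted p = 0.000144). The first M2 CM library stood above its pair, and without it the M2 CM value was -1.11, still called. TAM CM and M2 CM did not differ detectably, with a log2 difference of -0.06 (95% interval -0.46 to 0.35), which turned to 0.30 without that library (edgeR adjusted p = 0.235).

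The ratio of Tlr2 to Tlr6 per kb of exon was 22.2 ± 1.69 in M1 CM, 12.3 ± 3.95 in M2 CM, 21.5 ± 2.83 in TAM CM and 8.36 ± 1.16 in M0 CM (SD, n = 3 each). The M1 CM and TAM CM libraries overlapped in this ratio and lay above all others, although in M1 CM both genes were higher than in M0 CM and in TAM CM only Tlr2 was. Tlr1, a close paralog that neighbours Tlr6 and is the other partner of TLR2, had 19 counts in the 12 libraries together, against 1233 for Tlr6. The sources used here do not say how reads that match both genes were counted, so the Tlr6 values are uncertain to that extent.

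RefSeq gives Tlr6 a pair of start sites, and both windows are shown because each holds matches to interferon-related motifs (GRCm38.p6, minus strand, 250 bases before to 50 after the start). Capitals mark the interferon-stimulated response element TTCNNTTTC in the first, chr5:64959117-64959416, and the STAT motif TTCNNNGAA in the second, chr5:64959999-64960298.
Tlr6 first window: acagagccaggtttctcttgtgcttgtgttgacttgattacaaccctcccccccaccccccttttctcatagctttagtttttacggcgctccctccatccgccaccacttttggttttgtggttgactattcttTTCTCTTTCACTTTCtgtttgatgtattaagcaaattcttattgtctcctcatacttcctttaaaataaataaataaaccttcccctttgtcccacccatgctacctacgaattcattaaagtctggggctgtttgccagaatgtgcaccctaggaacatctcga
Tlr6 second window: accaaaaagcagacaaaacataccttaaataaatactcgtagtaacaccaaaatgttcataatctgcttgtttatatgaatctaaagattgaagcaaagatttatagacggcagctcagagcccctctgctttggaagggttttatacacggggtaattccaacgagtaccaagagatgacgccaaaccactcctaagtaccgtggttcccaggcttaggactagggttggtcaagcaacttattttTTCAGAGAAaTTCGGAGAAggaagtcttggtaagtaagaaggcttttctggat
The response element was matched at -115 to -107 and, overlapping it, at -109 to -101. The STAT motif was matched at -3 to 6 and at 8 to 16. These motifs were found in 8.56% and 8.3% of all 32851 windows.

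**Figure D2:**
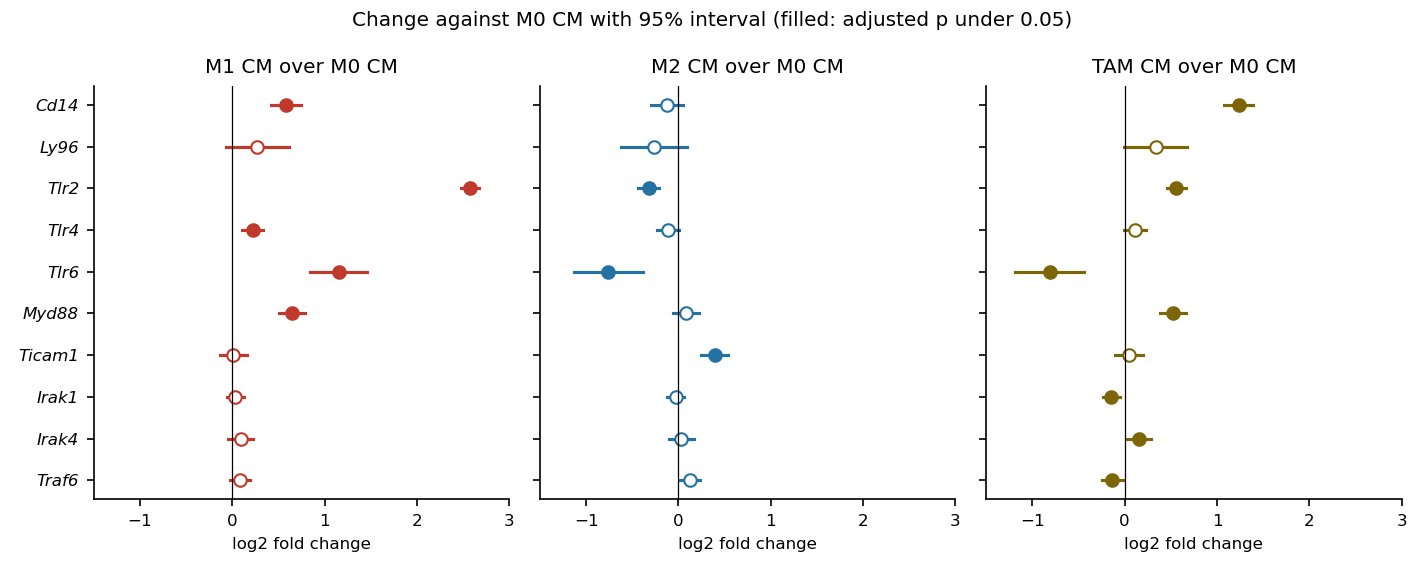
Log2 fold change of each gene (points) with its 95% interval (lines) in M1 CM, M2 CM and TAM CM over M0 CM, 3 libraries each. Filled points were called. Tlr2 stands at 2.57 in M1 CM, Cd14 at 1.23 in TAM CM, and Tlr6 is above 0 in M1 CM and below 0 in both other media.

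Myd88 (ENSMUSG00000032508, chromosome 9, 119335934 to 119341411, minus strand), the adaptor shared by these receptors and by those of interleukin-1, was higher in M1 CM and TAM CM than in M0 CM. Its libraries had 32.5, 32.2 and 30.8 CPM in M1 CM, 23.3, 20.3 and 20.9 CPM in M2 CM, 30.9, 28.2 and 28.6 CPM in TAM CM, and 20.0, 21.1 and 19.9 CPM in M0 CM. M1 CM and TAM CM lay above all libraries of M2 CM and M0 CM, and these last overlapped each other. The log2 fold change over M0 CM was 0.65 in M1 CM (SE 0.07, edgeR adjusted p = 1.98e-11) and 0.52 in TAM CM (SE 0.07, edgeR adjusted p = 4.61e-09). TAM CM was below M1 CM by -0.12 on the log2 scale (95% interval -0.26 to 0.01, edgeR adjusted p = 0.0931). Without the first TAM CM library that difference was -0.17 and was called (edgeR adjusted p = 0.0488), as it was with unscaled library sizes, at -0.15 (edgeR adjusted p = 0.0368).

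Myd88 shares 290 exon bases with Acaa1a on the opposite strand, and the sources used here give no strand setting for the counting, so reads of the pair may not be told apart. Acaa1a, a peroxisomal thiolase gene, averaged 35.3 ± 2.45 CPM in M1 CM, 18.8 ± 0.88 CPM in TAM CM and 25.6 ± 1.83 CPM in M0 CM (SD, n = 3 each). In TAM CM it was lower than in M0 CM while Myd88 was higher, and in M1 CM both were higher. The log2 fold change of Acaa1a was -0.44 in TAM CM and 0.46 in M1 CM (edgeR adjusted p = 6.58e-07 and 8.25e-08).

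The promoter window of Myd88 is shown because it is the only one among the adaptors and kinases with a match (RefSeq, GRCm38.p6, chr9:119339969-119340268, minus strand). Capitals mark an overlapping pair of matches, of the STAT motif at -46 to -38 and of the interferon-stimulated response element, on the other strand, at -40 to -32.
Myd88: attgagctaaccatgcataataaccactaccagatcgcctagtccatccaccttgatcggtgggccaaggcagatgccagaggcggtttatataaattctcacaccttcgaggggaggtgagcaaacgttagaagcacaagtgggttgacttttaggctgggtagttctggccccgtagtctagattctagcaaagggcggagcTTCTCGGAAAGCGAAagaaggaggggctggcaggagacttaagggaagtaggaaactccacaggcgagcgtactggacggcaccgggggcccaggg
Windows were given for 7 of the 10 genes, 9 windows in all. Of these, 5 held none of the 4 motifs searched, those of Ticam1, Irak1, Irak4 and Traf6. Irak1 has a pair of windows that overlap almost wholly. Taken singly, the 4 motifs were found in 5.82% to 8.56% of all windows. The share of all windows holding any of the 4 was not worked out. Whether matches are more frequent among these genes was thus not tested. The fourth motif, TGANTCA (AP-1), was found in no member's window and in 7.81% of all windows. No match says only that these letters are not in the window.

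Ticam1 (ENSMUSG00000047123, chromosome 17, 56269319 to 56276786, minus strand), the gene of the adaptor TRIF, was the only member called higher in M2 CM. Its libraries had 20.6, 19.9 and 20.0 CPM in M1 CM, 24.8, 26.8 and 27.3 CPM in M2 CM, 19.8, 22.0 and 20.1 CPM in TAM CM, and 21.04, 19.8 and 18.99 CPM in M0 CM. The M2 CM libraries were above all 9 others, which overlapped. In M2 CM the log2 fold change over M0 CM was 0.40 (SE 0.07, 95% interval 0.25 to 0.54, edgeR adjusted p = 1.33e-05). It was 0.01 in M1 CM (95% interval -0.14 to 0.16) and 0.05 in TAM CM (-0.10 to 0.20), and neither was called. The ratio of Myd88 to Ticam1 per kb of exon was 1.83 ± 0.04 in M1 CM, 0.95 ± 0.12 in M2 CM, 1.65 ± 0.16 in TAM CM and 1.19 ± 0.07 in M0 CM (SD, n = 3 each), so that the M2 CM libraries lay below and the M1 CM and TAM CM libraries above those of M0 CM.

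**Figure D3:**
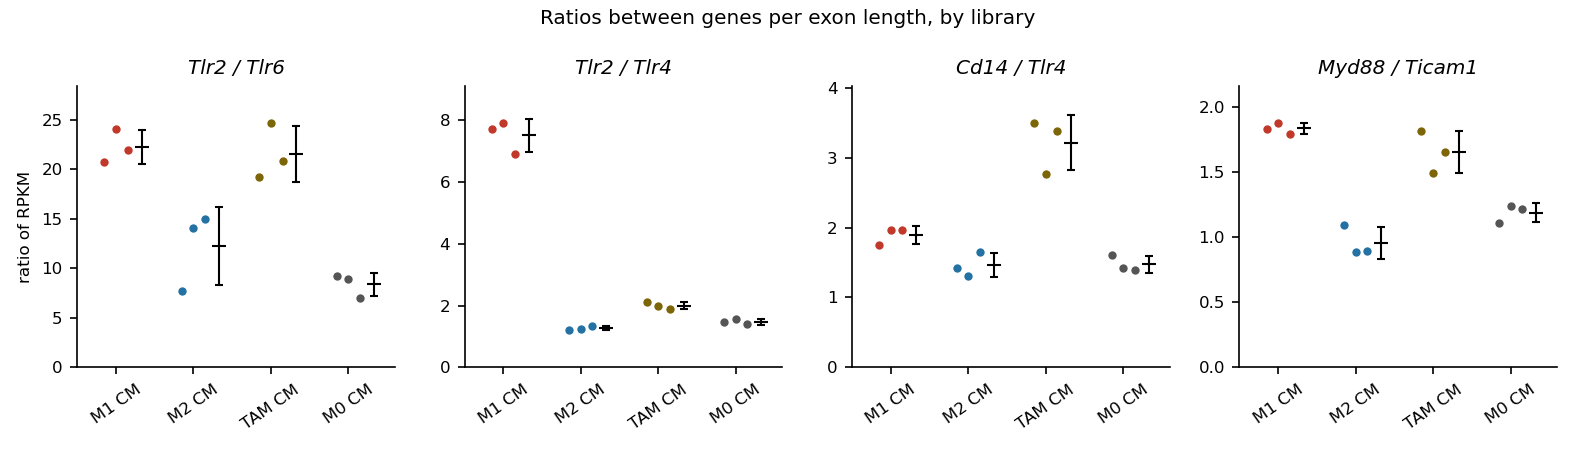
Ratios between genes of the family, as RPKM over RPKM, in each library of the 4 media, with mean and SD as a bar. Tlr2 over Tlr6 was high in M1 CM and TAM CM, Tlr2 over Tlr4 in M1 CM, Cd14 over Tlr4 in TAM CM, and Myd88 over Ticam1 was lowest in M2 CM.

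The kinases and the ligase downstream of MyD88 changed little. Irak1 (ENSMUSG00000031392, chromosome X, 74013914 to 74023918, minus strand) had 75.8, 81.5 and 74.2 CPM in M1 CM, 74.4, 73.7 and 73.7 CPM in M2 CM, 65.2, 71.4 and 68.1 CPM in TAM CM, and 77.8, 72.9 and 75.3 CPM in M0 CM. TAM CM lay below every other library. Its log2 fold change over M0 CM was -0.14 (SE 0.05, edgeR adjusted p = 0.00503), and those of M1 CM and M2 CM were 0.03 (95% interval -0.06 to 0.12) and -0.03 (-0.12 to 0.06). The microRNA genes Mir5132 and Mir718 overlap its exons on the same strand, by 71 and 70 bases.

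Traf6 (ENSMUSG00000027164, chromosome 2, 101678429 to 101701669, plus strand) had 45.0, 44.5 and 48.1 CPM in M1 CM, 45.4, 46.5 and 49.7 CPM in M2 CM, 37.2, 41.4 and 39.6 CPM in TAM CM, and 43.2, 43.0 and 43.7 CPM in M0 CM. TAM CM lay below and the other media above the M0 CM libraries. In TAM CM the log2 fold change was -0.13 (SE 0.06, edgeR adjusted p = 0.0324). Leaving out replicate 1 or 3 of either M0 CM or TAM CM ended this call, with values of -0.13, -0.13, -0.09 and -0.13 (edgeR adjusted p = 0.0588, 0.0699, 0.176 and 0.0617), as did DESeq2 (adjusted p = 0.0531). The M2 CM difference of 0.13 was not called (95% interval 0.02 to 0.24, edgeR adjusted p = 0.0607), but was without the first M2 CM library, at 0.15 (edgeR adjusted p = 0.0452), and in a fit of the 2 groups alone (edgeR adjusted p = 0.0465).

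Irak4 (ENSMUSG00000059883, chromosome 15, 94543643 to 94581815, plus strand), the kinase that opens the MyD88 cascade, had 29.3, 27.1 and 30.7 CPM in M1 CM, 26.6, 29.6 and 27.2 CPM in M2 CM, 31.2, 27.6 and 32.0 CPM in TAM CM, and 27.4, 27.0 and 27.3 CPM in M0 CM. The media overlapped widely, apart from TAM CM, whose lowest library was just above M0 CM. The TAM CM log2 fold change of 0.15 passed the threshold (SE 0.07, edgeR adjusted p = 0.044). It was not called with any single library of M0 CM or replicate 1 or 3 of TAM CM left out, with values of 0.11 to 0.16 (edgeR adjusted p = 0.075, 0.0992, 0.0813, 0.136 and 0.212), nor with DESeq2 (adjusted p = 0.0759) or without the filter (edgeR adjusted p = 0.084), and with unscaled library sizes it was 0.05. Irak4 also shares 395 exon bases with Twf1 on the opposite strand, which averaged 169 ± 2.43 CPM in TAM CM and 195 ± 6.003 CPM in M0 CM (SD, n = 3 each).

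Per kb of exon, M0 CM cells held Irak1 at 16.0 ± 0.52 RPKM, Cd14 at 10.01 ± 0.52 and Tlr2 at 9.98 ± 0.58, followed by Myd88 at 7.90 ± 0.26, Tlr4 at 6.80 ± 0.20 and Ticam1 at 6.67 ± 0.35 RPKM (SD, n = 3 each). Traf6 and Irak4, at 5.49 ± 0.04 and 5.42 ± 0.04 RPKM, and Ly96 and Tlr6, at 3.47 ± 0.31 and 1.21 ± 0.16 RPKM, were lower. Cd14 and Tlr2 did not differ beyond their spread, nor did Tlr4 and Ticam1. In M1 CM, Tlr2 stood first at 59.4 ± 0.33 RPKM, above Irak1 at 16.4 ± 0.81, and in TAM CM, Cd14 stood first at 23.6 ± 2.20 RPKM, above Tlr2 at 14.7 ± 0.54 RPKM (SD, n = 3 each). By mean alone, M1 CM was highest for 5 members, TAM CM for 3, M2 CM for 2 and M0 CM for 0. M2 CM was lowest for 4 (Cd14, Ly96, Tlr2 and Tlr4), TAM CM for 3 (Tlr6, Irak1 and Traf6), M0 CM for 3 and M1 CM for 0. Not all these ranks were separated. In M1 CM, Irak1 was not called against M0 CM, nor Tlr4 and Myd88 against TAM CM (edgeR adjusted p = 0.557, 0.113 and 0.0931). Against M0 CM, Cd14, Ly96 and Tlr4 were not called in M2 CM (edgeR adjusted p = 0.265, 0.248 and 0.148). Such ranks were not worked out over all genes.

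Among the media of treated macrophages, Tlr2 and Tlr6 differed most against M1 CM, and Cd14 and Tlr2 in TAM CM against M2 CM. Not every receptor did. In TAM CM against M1 CM, Tlr4 differed less than Irak1 and Traf6, with log2 differences of -0.10, -0.18 and -0.22. In TAM CM against M2 CM, Tlr6 differed less than Myd88, with -0.06 and 0.44. TAM CM against M1 CM called 1 member higher, Cd14, and 4 lower, Tlr2, Tlr6, Irak1 and Traf6, where 67.2% of all genes were called, 32.8% higher and 34.4% lower. Tlr2 and Tlr6 were 4.04-fold and 3.91-fold lower in TAM CM than in M1 CM, with log2 fold changes of -2.01 and -1.97 (edgeR adjusted p = 3.63e-38 and 1.51e-14). TAM CM against M2 CM called 5 higher, Cd14, Tlr2, Ly96, Myd88 and Tlr4, and 3 lower, Ticam1, Traf6 and Irak1, where 68.4% of all genes were called, 34.3% higher and 34.1% lower. Cd14 was 2.57-fold and Tlr2 1.84-fold higher in TAM CM than in M2 CM. The Irak1 difference of -0.11 (edgeR adjusted p = 0.0259) was lost without replicate 1 or 3 of M2 CM or of TAM CM (edgeR adjusted p = 0.0609, 0.0528, 0.175 and 0.0621), and the Irak4 difference of 0.12 was called without the second library of M2 CM or of TAM CM (edgeR adjusted p = 0.0475 and 0.0195). M2 CM against M1 CM called 1 higher, Ticam1, and 6 lower, Tlr2, Tlr6, Cd14, Myd88, Ly96 and Tlr4, where 56.2% of all genes were called, 27.8% higher and 28.4% lower. The median log2 fold change of the 10 was -0.43 in this comparison, against -0.02 over all genes. Tlr4 in TAM CM against M1 CM, at -0.10, was called, among the alternatives run, without the second M1 CM library and with unscaled library sizes (edgeR adjusted p = 0.0415 and 0.0426).

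Of the other Toll-like receptors, only Tlr3 and Tlr5 passed the filter. Tlr3, the sensor of double-stranded RNA, averaged 10.1 ± 0.57 RPKM in M1 CM, 2.29 ± 0.14 in M2 CM, 1.46 ± 0.18 in TAM CM and 2.58 ± 0.19 RPKM in M0 CM (SD, n = 3 each). It thus followed Tlr6 in being called higher in M1 CM and lower in TAM CM, by log2 fold changes of 1.97 and -0.81 (edgeR adjusted p = 1.09e-27 and 3.42e-10). Tlr5, the flagellin receptor, was lower in all 3 media, at 1.00 ± 0.07 RPKM in M1 CM, 1.41 ± 0.10 in M2 CM, 0.84 ± 0.04 in TAM CM and 2.37 ± 0.06 RPKM in M0 CM (SD, n = 3 each). Tlr8 and Tlr11 had 0 counts in all 12 libraries, and Tlr1, Tlr7, Tlr9, Tlr12 and Tlr13 had 19, 18, 3, 1 and 9 counts in total. A count of 0 in the smallest library allows up to 0.164 CPM (3 counts, counting error only, since reads without molecular identifiers are not independent molecules).

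**Figure D4:**
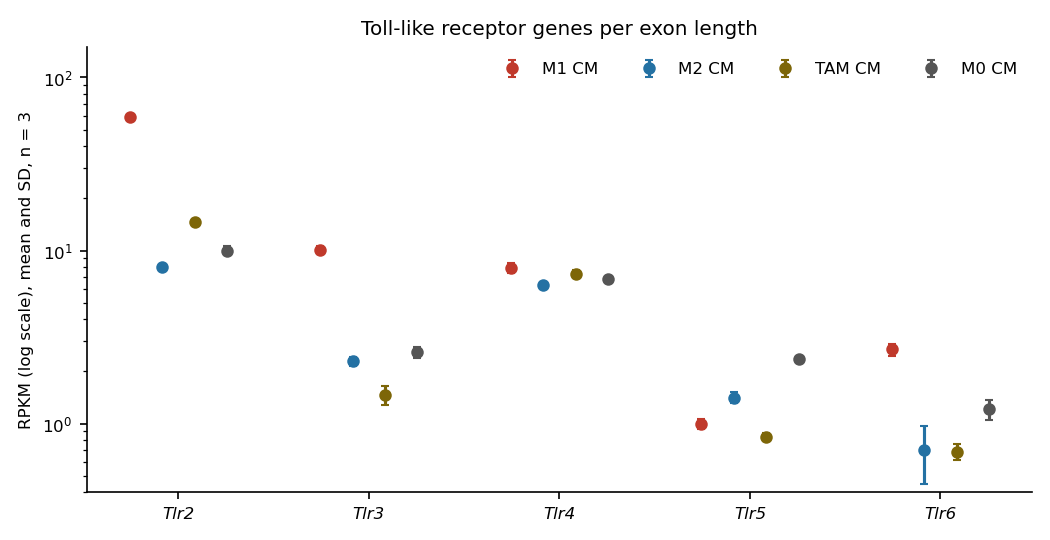
Toll-like receptor genes that passed the filter, as RPKM on a log axis, mean and SD of 3 libraries in each medium. Tlr2, Tlr3 and Tlr6 are highest in M1 CM, Tlr5 is highest in M0 CM, and Tlr4 stays between 6.30 and 7.93 RPKM.

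Around these genes, 9 lists of pathway genes were read, 103 genes of which 80 were tested. Against M0 CM, 56 of the 80 were higher and 14 lower in M1 CM, 31 higher and 17 lower in M2 CM, and 31 higher and 35 lower in TAM CM, beside the shares of all genes given above.

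The list of co-receptors, ligand carriers and trafficking proteins had 4 of 9 genes tested. Of the rest, Lbp, the serum carrier of lipopolysaccharide, had 111 counts in the 12 libraries, Cd36, an aid to the TLR2 and TLR6 pair, had 44, and Cd180, Ly86 and Tril had 2, 0 and 0. Unc93b1, which escorts nucleic-acid-sensing receptors to endosomes, averaged 23.5 ± 1.85 CPM in M1 CM, 14.7 ± 0.86 in TAM CM and 8.95 ± 0.52 CPM in M0 CM (SD, n = 3 each), and was called higher in both (edgeR adjusted p = 1.97e-18 and 8.42e-09). Hsp90b1, the chaperone gp96 that folds these receptors, was lower in M1 CM and TAM CM, by log2 fold changes of -0.49 and -0.26, and higher in M2 CM, by 0.19. Ticam2, the bridge between TLR4 and TRIF, had 0 counts in all 12 libraries.

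Of 19 further adaptors, kinases and ligases tested, 10 were higher and 5 lower in M1 CM, 4 and 3 in M2 CM, and 8 and 10 in TAM CM. Irak2, a kinase that sustains MyD88 signalling, averaged 25.7 ± 1.04 CPM in M1 CM, 9.10 ± 0.23 in M2 CM, 5.43 ± 0.46 in TAM CM and 9.81 ± 1.10 CPM in M0 CM (SD, n = 3 each). Unlike Irak1 and Irak4 it was called in opposite directions in M1 CM and TAM CM, by log2 fold changes of 1.39 and -0.85 (edgeR adjusted p = 2.48e-18 and 5.88e-09). Tab2, the ubiquitin-binding subunit of the TAK1 kinase complex, was 1.68-fold higher in TAM CM than in M0 CM. Ube2n, the conjugating enzyme that works with TRAF6, was lower in M1 CM and TAM CM by log2 fold changes of -0.37 and -0.51. Tbk1, the kinase of the TRIF branch, was higher in M1 CM by 0.22 and lower in TAM CM by -0.49 on the log2 scale.

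The 12 inhibitors of the pathway were all tested. In M1 CM 9 were higher and 1 lower, in M2 CM 7 were higher and 1 lower, and in TAM CM 4 were higher and 6 lower. Tnfaip3, the ubiquitin-editing enzyme A20, averaged 62.9 ± 0.58 CPM in M1 CM, 11.2 ± 0.54 CPM in TAM CM and 23.7 ± 3.10 CPM in M0 CM (SD, n = 3 each). Nfkbia, the inhibitor that holds NF-kB in the cytoplasm and is itself induced by it, averaged 279 ± 10.6 CPM in M1 CM, 230 ± 6.52 in M2 CM, 116 ± 3.64 in TAM CM and 160 ± 9.54 CPM in M0 CM (SD, n = 3 each). Both were called higher in M1 CM, by 1.41 and 0.80 on the log2 scale, and lower in TAM CM, by -1.08 and -0.47. Trafd1, which dampens TRAF6 signalling, was 4.72-fold higher in M1 CM and was lower in M2 CM and TAM CM, by log2 fold changes of -0.66 and -0.59. Cyld, a deubiquitinase, was lower in M1 CM and TAM CM, by -0.25 and -0.71.

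Most receptors of the interleukin-1 family share MyD88 with the Toll-like receptors, but the decoy Il1r2 does not. Of 7 listed, 5 were tested, and Il1r2 was not among them. In M1 CM 3 were higher and 1 lower, in M2 CM 4 and 0, and in TAM CM 2 and 2. Il1rl1, the interleukin-33 receptor ST2, averaged 2814 ± 223 CPM in M1 CM, 697 ± 27.0 in M2 CM, 1565 ± 24.6 in TAM CM and 282 ± 18.2 CPM in M0 CM (SD, n = 3 each). It was 9.98-fold, 2.47-fold and 5.55-fold higher than in M0 CM (edgeR adjusted p = 6.47e-12, 3.84e-08 and 3.16e-11). Il1r1, the interleukin-1 receptor, and Il1rap, its co-receptor, were both higher in M2 CM, by 0.77 and 1.00 on the log2 scale. In M1 CM and TAM CM, Il1r1 had log2 differences of -0.01 and -0.04, not called, and Il1rap fell by 0.28 and 0.55.

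Of 9 tested genes of endogenous TLR2 or TLR4 ligands, 5 were higher and 4 lower in M1 CM, 5 and 3 in M2 CM, and 4 and 3 in TAM CM. S100a8, among those higher in M1 CM, averaged 1.90 CPM there and 0.17 CPM or less in the other media. It passed the filter through M1 CM alone, which fixed the direction of that call. Saa3, an acute-phase serum amyloid, averaged 19.2 ± 3.14 CPM in M1 CM and 26.6 ± 0.85 CPM in TAM CM, against 0.44 ± 0.23 CPM in M0 CM (SD, n = 3 each), where the M0 CM level rests on few reads. Versican (Vcan) was higher in M1 CM and M2 CM, by log2 fold changes of 0.49 and 0.24, and lower in TAM CM, by -1.08. Fibronectin (Fn1) ran the other way, with -0.84, -0.45 and 0.67 in the same order. Biglycan (Bgn), a proteoglycan read by TLR2 and TLR4, was lower in all 3 media, by -0.58, -0.87 and -1.03.

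Of 10 tested sensors of bacterial products outside the Toll-like receptors, 8 were higher and 0 lower in M1 CM, 2 and 5 in M2 CM, and 3 and 5 in TAM CM. Nlrp3, among those higher in M1 CM and TAM CM, averaged 2.81 and 1.28 CPM there, against 0.15 CPM in M0 CM. It passed the filter through M1 CM and TAM CM, which fixed the direction of those calls. Casp4, the mouse caspase-11 that binds lipopolysaccharide in the cytosol, averaged 60.1 ± 1.74 CPM in M1 CM, 10.98 ± 0.79 in M2 CM, 32.5 ± 0.73 in TAM CM and 6.60 ± 0.77 CPM in M0 CM (SD, n = 3 each). It was called higher in all 3 media, by log2 fold changes of 3.19, 0.74 and 2.31 (edgeR adjusted p = 1.84e-36, 1.12e-08 and 1.54e-29). By mean, its order of media, M1 CM, TAM CM, M2 CM, M0 CM, was also that of Myd88. For Myd88, however, TAM CM was not separated from M1 CM, nor M2 CM from M0 CM (edgeR adjusted p = 0.0931 and 0.394). Casp1, the inflammasome protease, and Gsdmd, the pore protein it cuts, were higher in M1 CM by 1.99 and 1.14 and lower in TAM CM by -0.84 and -0.66 on the log2 scale. Nod2, the muramyl dipeptide sensor, followed the same pattern, with 0.61 and -0.90.

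Genes that lipopolysaccharide induces through MyD88 and NF-kB had 11 of 13 tested, and they respond to other cytokines as well. In M1 CM all 11 tested were higher, with a median log2 fold change of 2.53. Il6 averaged 1.26 CPM in M1 CM and 0.08 CPM or less in the other media. It thus passed the filter through M1 CM alone, which fixed the direction of its call. Tnf, Cxcl2 and Icam1 were also scarce in M1 CM, at 0.66, 1.88 and 1.41 CPM, and in TAM CM, at 1.14, 1.91 and 0.21 CPM. In M0 CM, Tnf and Cxcl2 averaged 0.11 and 0.12 CPM. They passed the filter through other media, which fixed the direction of their calls against M0 CM. In M2 CM 6 were higher and 1 lower, and in TAM CM 7 were higher and 2 lower, with medians of 0.64 and 1.71. Cxcl1, a neutrophil chemokine, averaged 506 ± 45.6 CPM in M1 CM, 237 ± 11.9 in M2 CM, 270 ± 11.4 in TAM CM and 71.7 ± 1.42 CPM in M0 CM (SD, n = 3 each), and was called in all 3. Lcn2, a siderophore-binding protein, averaged 24.5 ± 1.27 CPM in M1 CM and 18.2 ± 2.51 CPM in TAM CM, against 0.70 ± 0.21 CPM in M0 CM (SD, n = 3 each). Sod2, a mitochondrial dismutase, was higher in M1 CM by 2.11 and in M2 CM by 0.28, and lower in TAM CM by -0.14 on the log2 scale. The list was thus not uniform in TAM CM.

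Genes of the TRIF and interferon arm had 8 of 9 tested, and interferons induce most of them without any Toll-like receptor. In M1 CM 7 were higher and 1, Irf3, the factor that TRIF signalling activates, was lower, with a median log2 fold change of 5.10. In M2 CM 2 were higher and 2 lower, and in TAM CM 2 were higher and 3 lower, with medians of -0.01 and 0.10. Cxcl10 averaged 901 ± 62.5 CPM in M1 CM, 26.2 ± 1.40 in M2 CM, 26.5 ± 3.37 in TAM CM and 23.1 ± 1.12 CPM in M0 CM (SD, n = 3 each), a 39.0-fold difference between M1 CM and M0 CM. Irf1, a factor induced by interferon-gamma, was 7.26-fold higher in M1 CM. Ifit2, an antiviral effector, was higher in M1 CM and lower in TAM CM, by 1.27 and -0.95 on the log2 scale, while Ccl5 was higher in both, by 4.92 and 0.87.

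**Figure D5:**
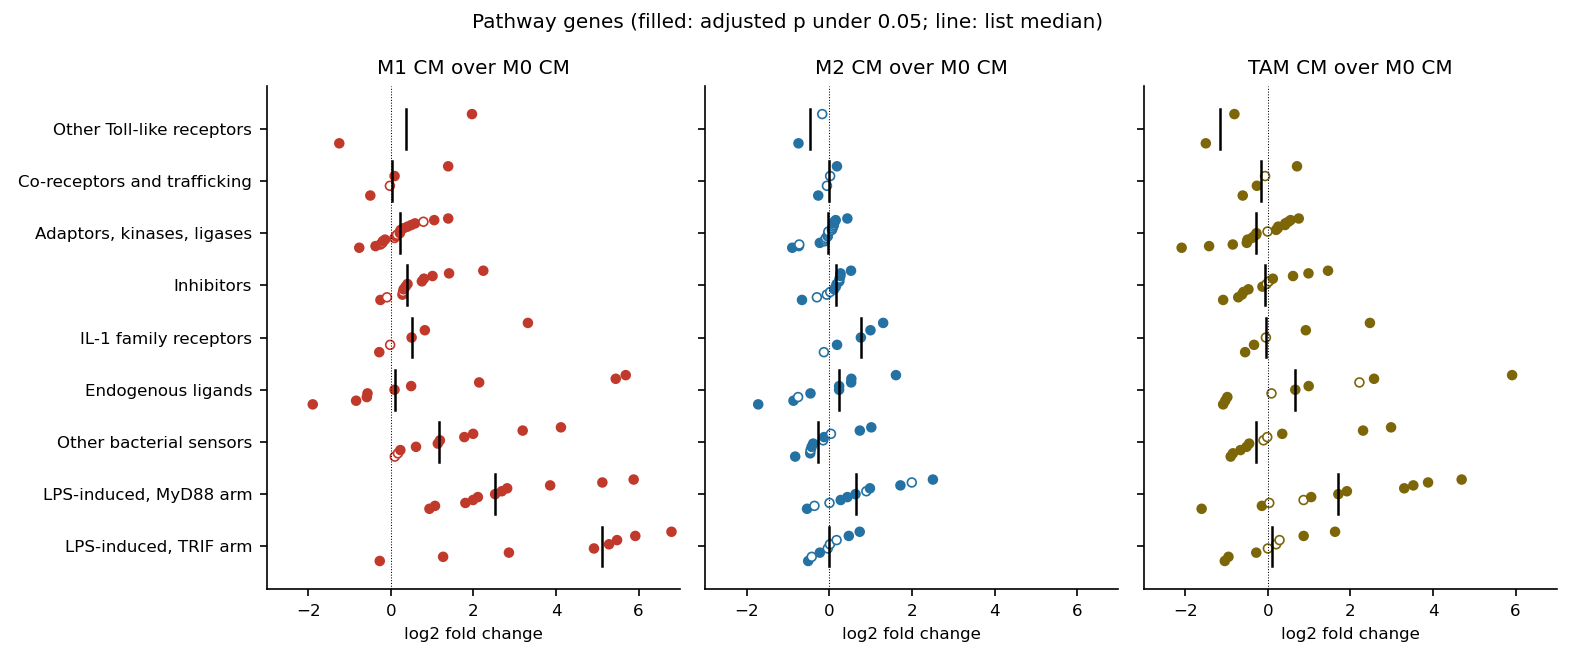
Log2 fold change over M0 CM of each tested gene of the 9 pathway lists in M1 CM, M2 CM and TAM CM, with called genes filled and the list median as a line. The TRIF arm has a median of 5.10 in M1 CM and lies around 0 in the other media, while the MyD88 arm has medians of 2.53 in M1 CM and 1.71 in TAM CM.

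The genes whose profile was most like that of 3 members were taken by Pearson's r of log2 CPM over the 12 libraries, among 10646 genes, as a description. The points share libraries and fall into 4 media, so a high r reflects the order and spacing of the media. For Tlr2 they were Isg15, Rnf213, Nub1, Usf1 and Irgm2, with r between 0.993 and 0.997. Isg15 averaged 299 ± 37.0 CPM in M1 CM, 3.69 ± 0.26 in M2 CM, 15.3 ± 0.71 in TAM CM and 4.93 ± 0.18 CPM in M0 CM (SD, n = 3 each). For Cd14 they were Parvb, Neo1, Plekhm3, Mcc and Slc38a7, with r between 0.987 and 0.994. Slc38a7, an amino acid transporter, averaged 27.9 ± 1.41 CPM in M1 CM, 10.1 ± 1.00 in M2 CM, 79.1 ± 1.16 in TAM CM and 11.4 ± 0.63 CPM in M0 CM (SD, n = 3 each). For Myd88 they were Gpank1, Cebpb, Ifi203, Zdhhc18 and Klf4, with r between 0.977 and 0.984. Cebpb, a transcription factor of the acute-phase response, averaged 86.7 ± 3.46 CPM in M1 CM, 28.4 ± 4.41 in M2 CM, 80.6 ± 3.71 in TAM CM and 26.7 ± 1.18 CPM in M0 CM (SD, n = 3 each). The 3 sets of 5 shared no gene.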

How the data were processed

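The authors deposited 1 table of raw read counts per Ensembl gene for the 12 libraries, with no scaling. The submitters' processing notes name HISAT2 2.0 and mm10. The sources used here name no counter, annotation or strand setting. Per the labels, RNA was taken with Trizol for Illumina mRNA libraries.

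Libraries were grouped by their titles. Identifiers were matched to GENCODE M21 (GRCm38), which named 55227 of 55487 and gave coordinates and exon lengths. In R 4.3.3, edgeR 4.0.16 kept 14509 genes by filterByExpr (those removed held 0.0815% of counts), scaled by TMM and fitted glmQLFit (robust) with a mean per medium, and glmQLFTest tested 6 comparisons with Benjamini-Hochberg adjustment over all genes at 0.05. The standard error is the size of the log2 fold change divided by the root of F. CPM uses TMM-scaled library sizes, and RPKM divides it by exon length. The steps were tested on simulated counts for M1 CM against M0 CM. Of 50 genes changed at each size, 33 were recovered at 1.25-fold, 42 at 1.5-fold, 48 at 2-fold and 50 at 4-fold. Of 13691 unchanged genes, 11 were called. Differences of 1.25-fold or less can thus be missed.

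The members, lists and motifs were chosen with earlier results of these data known. From each list, up to 4 called genes with the smallest p among the 4 media and up to 2 more by level could be named, of which some are given. Isg15, Slc38a7 and Cebpb among the most alike genes were picked after their values were seen. Alternatives were DESeq2 1.42.0, its size factors, unscaled library sizes, other filters, fits of 2 groups, a replicate block and each library left out. No 2 libraries were identical, and replicates differed by more than sampling noise. Promoters are from RefSeq (GRCm38.p6).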

Additional observations from a re-analysis of the deposited data

How the results depend on the processing

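Every total of calls, over all genes or over the 10, kept within 1.5 times its value under all alternatives run. Of the members called higher in M2 CM over M0 CM there were 2 instead of 1 in the fit of the 2 groups alone and without the first M2 CM library, where Traf6 was added. With each library left out in turn, the counts of all genes called ran from 7117 to 7414 for M1 CM, from 4999 to 5134 for M2 CM and from 9801 to 9834 for TAM CM over M0 CM, and the members called from 5 to 5, from 3 to 4 and from 5 to 7 of 10. For TAM CM over M1 CM, TAM CM over M2 CM and M2 CM over M1 CM the members called ran from 5 to 6, from 7 to 9 and from 6 to 7. Of 780 values of the 10 genes under the alternatives, 751 kept their direction and side of the threshold where they had one, 19 were no longer called and 10 became called, and those that hinge on 1 library stand beside their gene. Of 3821 values of other named genes, 1 turned round: Irf1 in TAM CM over M0 CM was -0.0937 with unscaled library sizes (edgeR adjusted p = 0.0448), against 0.00 with TMM scaling. Unscaled library sizes shifted the median log2 fold change by -0.07, -0.06 and -0.10 in M1 CM, M2 CM and TAM CM over M0 CM and split the calls into 3219 higher and 4626 lower, 2201 and 3653, and 4300 and 5891, against 4023 and 3719, 3042 and 2681, and 5089 and 5067 with TMM. With unscaled library sizes the TAM CM call of Irak4 was lost, all calls of Tlr4 were kept, and its differences in M2 CM over M0 CM and TAM CM over M1 CM became called.

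Over all comparisons, deviations of same-numbered libraries correlated weakly (r from -0.0289 to 0.0507), within the range of other pairs (-0.0516 to 0.0515). In TAM CM against M1 CM, however, all same-numbered pairs (0.0237 to 0.0507) lay above the other pairs (-0.0516 to 0.00237). The same held in TAM CM against M0 CM (0.00871 to 0.0164, against -0.0162 to 0.00425). Such small values cannot tell whether the numbers pair the libraries. With the replicate number as a block, 7806, 5821 and 10184 genes were called in M1 CM, M2 CM and TAM CM over M0 CM, and 5, 3 and 7 members, as without it. Ly96 and Tlr6, with at most 239 counts in a library, have the widest intervals. The test of any difference among the 4 media under the alternatives was added after the data had been seen, and called 8 to 10 members.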
